A study of Homo sapiens with 36 samples.

Results

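The genes described here are 157 protein-coding genes of human chromosome 13 whose RNA was measured in A2780 ovarian cancer cells. They were selected on their level, a mean of 8 or more CPM (counts scaled to a common library total) over the 6 untreated libraries of the cisplatin-sensitive parental line (wt) and its cisplatin-resistant derivative (cis). The count table held 57820 genes, of which 313 were protein-coding genes of chromosome 13, and 9365 protein-coding genes on the other chromosomes reached the same level. A further 5 chromosome 13 genes at that level were left out by name or family. The CPM were also scaled for library composition, and a log2 fold change is the log2 of the ratio of scaled levels in the fitted model, with -1 standing for a level at 50% of the reference.

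A2780 is an established ovarian carcinoma cell line. The wt group is the parental line, the cis group was derived from it by chronic exposure to cisplatin, and the cis SSP group is a subpopulation that grew out of cis cells after prolonged deprivation of serine and glycine. Each line was grown with serine and glycine (complete) or without both amino acids (-SG), and each medium was used without drug or with carboplatin (carbo), a platinum drug that crosslinks DNA. These 12 conditions had 3 libraries each, 36 in all. Each line is a single lineage and the study calls its replicates technical, so p-values measure only the spread between libraries and not between independently derived lines. The lines share the A2780 background, and cis SSP cells share with cis cells the history of cisplatin selection.

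Chromosome 13 is acrocentric, so that its protein-coding genes lie almost entirely on the long arm. It carries RB1, the retinoblastoma tumour suppressor that restrains entry into S phase, along with genes for mitosis, DNA repair, translation, transport and signalling that have no common function other than their chromosome. The level of the RNAs of a whole chromosome, measured gene by gene along its length, shows whether genes with unrelated roles differ between lines by a like amount and which genes do not follow the rest. RNA counts do not give the number of chromosome copies, and no DNA measurement was used here.

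Gene counts per library ranged from 13074937 to 20441582. Reads on no annotated feature, as a share of these reads and the gene counts together, were 4.21% to 9.31% in 34 libraries and 17.9% and 14.9% in replicates 2 and 3 of cis -SG carbo. Replicate 1 of cis SSP and replicate 2 of cis SSP -SG stood apart from the other libraries of their own conditions, with a mean chi-square per gene between pairs of libraries of 103 to 123, against 1.2 to 25.6 for the other pairs. Counts of called members that rest on them are given with and without them. Medians and values of single genes in cis SSP, in complete medium and under -SG, include them. Of 16 ovarian, epithelial, immune, endothelial and stromal markers found in the table, the defining markers PAX8, WT1, MUC16, KRT7, EPCAM and CDH1 stayed at or below 1.64 CPM in every condition mean, and the immune and endothelial markers PTPRC, CD68, LYZ and VWF at or below 0.26 CPM. KRT18, a simple epithelial keratin, moved with the lines, at 0.61 CPM in untreated wt and 17.3 CPM in cis and up to 43.1 CPM in cis -SG. With carboplatin in wt it was at 5.04 CPM in complete medium and 6.86 CPM under -SG, and its partner KRT8 at 5.56 and 6.02 CPM, while KRT8 was at 0.35 CPM in untreated wt and 0.60 CPM in untreated cis. The stromal markers DCN and LUM were at 20.8 to 24.3 and 4.81 to 5.55 CPM in the cis SSP conditions, against at most 1.02 CPM in any wt or cis condition, and the part of KRT8, KRT18, DCN and LUM in the differences between lines and treatments was not tested.

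The members were lower in cis than in wt cells along nearly the whole chromosome. In untreated complete medium, where the members were selected, 143 of 157 members had a log2 fold change below 0, and the median was -0.93, a level of 52.6% of wt. The quartiles were -1.15 and -0.62. The 9365 genes of the other chromosomes had a median of 0.07, and among the 22 other chromosomes the lowest median was -0.03, on chromosome 19. These untreated values describe the members and were not tested. Splitting the members into 10 Mb windows gave medians between -1.07 and -0.74 in 9 of the 10 windows, and 0.04 in the window from 60 to 70 Mb, which held only 3 members (DIAPH3, TDRD3 and PCDH9).

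The same difference was measured in 3 further pairs of conditions whose libraries had no part in the selection. A gene was called where edgeR's quasi-likelihood test gave a Benjamini-Hochberg adjusted p under 0.05 over all genes tested. With carboplatin, 125 of 157 members were called lower in cis and 24 higher, against 41.6% and 40.3% of all genes tested, and the median was -0.75 (59.4% of wt). Under -SG, 142 were lower and 11 higher, against 40.3% and 40.8% of all genes, with a median of -0.87 (54.6% of wt). Under -SG with carboplatin, 116 were lower and 21 higher, against 37.2% and 37% of all genes, with a median of -0.71 (61.2% of wt). The medians over the other chromosomes lay between -0.02 and 0.09 in these pairs, and chromosome 13 had the lowest median of 23 chromosomes in each. Called in the same direction in all 3 pairs were 106 members lower and 11 higher, against 20.2% and 20.3% of all genes tested in all 3. Leaving out replicates 2 and 3 of cis -SG carbo gave 104 lower and 17 higher in that condition, against 29.2% and 28.6% of all genes, with a median of -0.69; this leaves 1 cis library, which is assumed to vary like the wt libraries.

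**Figure D1:**
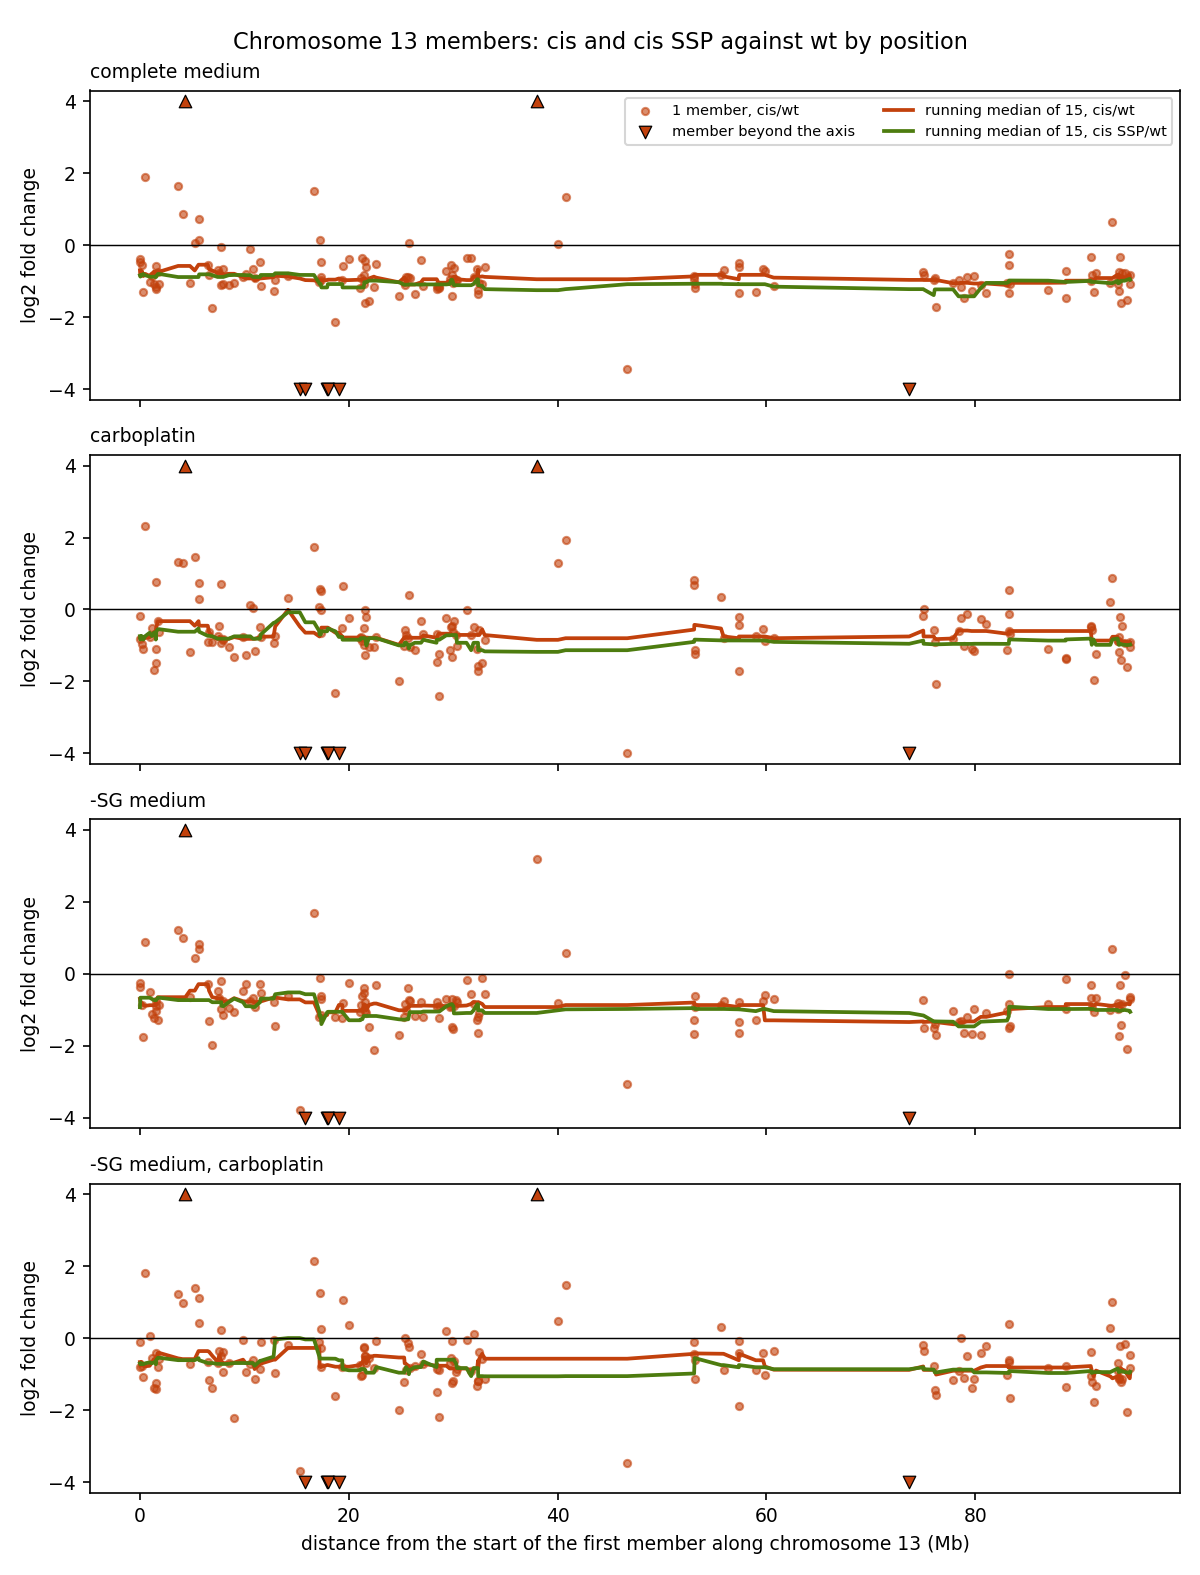
Log2 fold change of each member in cis against wt (points, with triangles for members beyond the axis at 4 or -4) by its distance in Mb from the start of the first member on chromosome 13, in the 4 media and treatments, with running medians of 15 neighbouring members for cis/wt and for cis SSP/wt as lines. In untreated complete medium the cis/wt line stayed between -1.11 and -0.54 and the cis SSP/wt line between -1.42 and -0.78.

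In untreated complete medium the median was -0.90 for the members of low and middle expression and -0.96 for those of high expression, in groups of 53, 52 and 52. In the same groups the medians were -0.60, -0.76 and -0.80 with carboplatin, -0.84, -0.87 and -0.91 under -SG and -0.54, -0.70 and -0.81 under -SG with carboplatin, so that members of low expression lay closest to wt in the treated pairs. The running median over 15 neighbouring members ranged from -1.11 to -0.54 in untreated complete medium, from -0.98 to -0.01 with carboplatin, from -1.40 to -0.29 under -SG and from -1.12 to -0.27 under -SG with carboplatin. At the proximal end MPHOSPH8, a chromatin protein that binds methylated histone H3, had a log2 fold change of -0.37 in untreated complete medium. At the distal end CDC16, a subunit of the anaphase-promoting complex, had -0.82. In all 4 media and treatments, 123 members lay below wt, 11 lay above it and 52 stayed within 0.5 of the members' median.

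A score per library, the median over the members of log2 CPM minus each gene's mean over the 36 libraries, separated wt from the other lines. The untreated wt libraries had scores of 0.66 to 0.72, and wt -SG libraries 0.65 to 0.67. The wt libraries with carboplatin had lower scores, 0.46 to 0.50 in complete medium and 0.43 to 0.46 under -SG. No wt library overlapped with a cis or cis SSP library. The cis libraries ran from -0.19 to -0.14 without treatment, from -0.22 to -0.20 with carboplatin, from -0.24 to -0.20 under -SG and from -0.36 to -0.24 under -SG with carboplatin. The cis SSP libraries ran from -0.48 to -0.31, from -0.34 to -0.30, from -0.41 to -0.27 and from -0.31 to -0.28 in the same order, so that cis and cis SSP did not overlap in 3 of the 4 conditions and did overlap under -SG with carboplatin. The same score over genes of the other chromosomes averaged 0.11 in untreated cis and 0.01 in untreated cis SSP, against -0.16 and -0.37 over the members, and under -SG with carboplatin -0.12 in cis and 0.04 in cis SSP, against -0.30 in both. In cis -SG carbo it was -0.03, -0.19 and -0.14 in replicates 1, 2 and 3. The members took 1.5% of all gene counts in wt, 0.81% in cis and 0.69% in cis SSP without treatment.

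**Figure D2:**
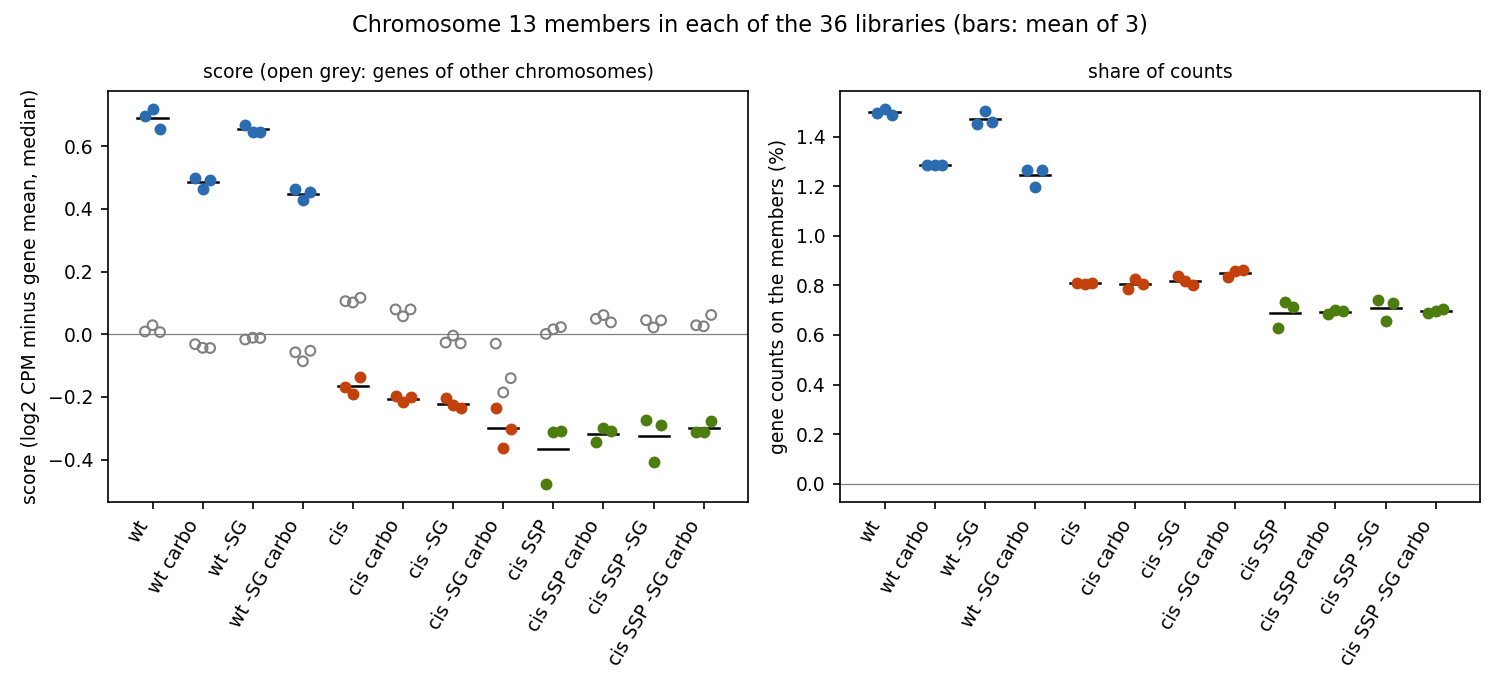
Left, score of each of the 36 libraries (median over the 157 members of log2 CPM minus the gene's mean over all libraries, with genes of the other chromosomes as open grey points), and right, percent of gene counts on the members, by line and condition, with bars for the mean of 3 libraries. The 12 wt libraries have scores between 0.43 and 0.72 and the 24 cis and cis SSP libraries between -0.48 and -0.14.

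The counts by role list below stand against the shares of all genes called lower and higher in cis, 41.6% and 40.3% with carboplatin, 40.3% and 40.8% under -SG and 37.2% and 37% under -SG with carboplatin. Of 17 regulators of the cell cycle and mitosis, 10 were lower in cis and 6 higher with carboplatin. Under -SG 16 were lower and 1 higher, and under -SG with carboplatin 13 were lower and 3 higher. RB1 was at 91.7, 93.6 and 86.7 CPM in the untreated wt libraries and at 41.8, 39.8 and 39.5 CPM in cis, a log2 fold change of -1.2 ± 0.042 (SE). The wt and cis libraries of RB1 did not overlap in any of the 4 conditions, and its log2 fold change was -1.23 with carboplatin (adjusted p = 4.39e-33), -0.89 under -SG (adjusted p = 1.4e-13) and -0.88 under -SG with carboplatin (adjusted p = 2.3e-06). TFDP1, the partner of E2F factors, had -0.78, -0.46, -0.85 and -1.14 in the same order. CUL4A, the scaffold of a ubiquitin ligase that acts on replication and repair proteins, kept close to the median with -0.91, -0.88, -0.82 and -0.90. LATS2, a kinase of the Hippo pathway, had -1.08, -1.67, -1.22 and -1.37, and was higher in wt with carboplatin (159 to 162 CPM) than without (108 to 111 CPM).

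The 8 members of the DNA repair and replication list were all below wt in untreated cis cells. In the treated pairs 5 were called lower and 1 higher with carboplatin, 7 lower under -SG and 6 lower under -SG with carboplatin, and the rest were not called. PARP4, a poly(ADP-ribose) polymerase of vault particles, had log2 fold changes of -1.06, -1.19, -0.65 and -0.73. LIG4, the ligase of non-homologous end joining, was at 16.3, 15.2 and 15.6 CPM in untreated wt and at 11.2, 8.87 and 9.25 CPM in cis. Its libraries did not overlap there, and LIG4 had -0.73, -1.35 (adjusted p = 1.24e-22), -0.14 (adjusted p = 0.101) and -0.77 (adjusted p = 4.83e-05) in the same order. RFC3, a subunit of the clamp loader of replication, was the member called higher with carboplatin, at 0.32 (adjusted p = 5.21e-07), while it had -0.85 without treatment. ERCC5, the nuclease that cuts 3' of a lesion in nucleotide excision repair, had -1.07, -0.67, -1.46 and -1.66, but its exons overlap those of the read-through gene BIVM-ERCC5 on the same strand, so that its count is uncertain. RNASEH2B, a subunit of the ribonuclease that removes ribonucleotides from DNA, had -0.37, -0.02, -0.16 and -0.05.

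All 23 members of the list of protein synthesis, folding and breakdown were below wt in untreated cis cells. In the treated pairs 22, 23 and 19 of them were called lower with carboplatin, under -SG and under -SG with carboplatin, and the rest were not called. TPT1, the abundant translationally controlled tumour protein, was at 825, 817 and 796 CPM in untreated wt and 440, 448 and 472 CPM in cis. Without serine and glycine the wt libraries had 962 to 980 CPM and the cis libraries 743 to 763 CPM, again without overlap. TPT1 had log2 fold changes of -0.88, -0.79 (adjusted p = 1.42e-36), -0.39 (adjusted p = 1.43e-12) and -0.13 (adjusted p = 0.143) in the 4 conditions. RPL21, a protein of the large ribosomal subunit, had -0.77, -0.45, -0.68 and -0.36, in a family with many processed copies in the genome. POMP, the chaperone of proteasome assembly, had -1.06, -1.31, -1.05 and -2.21, and DNAJC3, a co-chaperone of the endoplasmic reticulum that restrains translational arrest, had -0.90, -0.90, -1.40 and -1.43. HSPH1, a heat shock protein of the HSP110 group, had smaller differences of -0.48, -0.47, -0.27 and -0.86.

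RNA processing and decay (10 members) and transcription and chromatin (16 members) gave 9 lower and 1 higher, and 13 lower and 2 higher, with carboplatin. Under -SG all 10 of the first list were lower, and 15 lower and 1 higher of the second, and under -SG with carboplatin 9 lower and 1 higher, and 12 lower and 2 higher. ZC3H13, which takes part in RNA adenosine methylation, had log2 fold changes of -1.36, -1.14, -1.17 and -0.77. DIS3, the catalytic subunit of the RNA exosome, had -1.08, -1.23, -0.92 and -1.14. RBM26 had -0.65, -0.53, -0.75 and -0.42. These are RNA-binding or RNA-degrading proteins. ZMYM2, a zinc finger protein of histone deacetylase complexes, was at 261, 268 and 264 CPM in untreated wt and 113, 110 and 108 CPM in cis, and under -SG at 311 to 325 against 90.9 to 99.5 CPM. Its log2 fold changes of -1.29, -1.09, -1.75 and -1.08 lay below the members' median in each condition. POLR1D, a subunit of RNA polymerases I and III, had -1.07, -0.82, -1.16 and -0.94. The transcription factors of the list were TSC22D1, with -1.41, -1.99, -1.69 and -2.01, and the ETS factor ELF1, with -0.35, -0.89, -0.63 and -1.04.

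The 14 members for mitochondria and metabolism were lower in 11 cases and higher in 2 with carboplatin, lower in 13 and higher in 1 under -SG, and lower in 12 and higher in 1 under -SG with carboplatin. PCCA, a subunit of propionyl-CoA carboxylase, was at 21.5, 22.6 and 22.3 CPM in untreated wt and at 9.37, 10.4 and 11.6 CPM in cis, without overlap, and had log2 fold changes of -1.11, -0.27, -1.70 and -0.42. ESD, an esterase that clears formaldehyde, had -1.13, -0.67, -1.2 and -0.72, and VWA8, a mitochondrial ATPase, had -1.55, -1.05, -1.47 and -0.54. SLC25A15, the mitochondrial ornithine carrier, had -0.93, -0.75, -0.87 and -1.07. CARS2, the cysteinyl-tRNA synthetase of mitochondria, lay closer to wt in the treated pairs, with -0.99, -0.45, -0.31 and -0.37.

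Of the 18 members for transport and membrane traffic, 15 were lower and 3 higher with carboplatin and under -SG, and 12 lower and 4 higher under -SG with carboplatin. IPO5, an importin, was at 813, 829 and 799 CPM in untreated wt and at 427, 411 and 441 CPM in cis. Its log2 fold changes were -0.97, -0.59, -1.34 and -0.90. ATP7B, a copper-exporting ATPase known for its link to platinum handling, had -0.67, -1.10 (adjusted p = 1.23e-24), -1.28 (adjusted p = 2.75e-13) and -1.32 (adjusted p = 1e-06), lower in resistant cells in each pair. SLC7A1, a carrier of cationic amino acids, had -0.89, -0.76, -0.47 and -0.05 (adjusted p = 0.66), and cis libraries had 314 to 331 CPM under -SG against 196 to 205 CPM in complete medium. Signalling, with 18 members, gave 15 lower and 3 higher with carboplatin, 15 and 1 under -SG, and 12 and 3 under -SG with carboplatin. SPRY2, a feedback inhibitor of receptor tyrosine kinase signalling, had -1.14, -0.81, -0.71 and -0.35. STK24, a kinase of the STE20 group, had -1.47, -1.01, -1.64 and -1.10, and AKAP11, an anchor of protein kinase A, had -0.53, -0.76, -0.32 and -0.09 (adjusted p = 0.663). GAS6, the ligand of the receptors TYRO3, AXL and MERTK, had -0.76 and -0.93 in complete medium without and with carboplatin and -0.02 (adjusted p = 0.855) and -0.15 (adjusted p = 0.215) under -SG. The other 31 members were in none of these lists.

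The departure of a member is its log2 fold change minus the members' median in that condition, tested in edgeR with the median as the null value. It was called for 129, 119 and 111 of 157 members with carboplatin, under -SG and under -SG with carboplatin. Over all genes tested against the same value 89%, 90.4% and 84.3% were called, most of them because genes elsewhere lie near 0. In all 3 pairs 27 members departed upwards and 28 downwards. The share of all genes was not computed for calls in all 3 pairs, so these counts are descriptions. By the rule for named genes, a departure of 1 or more in the same direction in all 4 conditions, 10 members departed upwards and 7 downwards, and since that rule used all 4 cis/wt contrasts their cis/wt values are given without a test. Statements below that their wt and cis libraries did not overlap are descriptions too.

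The promoters of several departing members are shown because these members lie at the extremes of the position profile. They are RefSeq promoters of 300 bases on GRCh38.p14, from 250 bases before to 50 after the transcription start, written 5' to 3' on the gene's strand with each CG dinucleotide in capitals. Positions of genes elsewhere in the text are on GRCh37, so the promoter positions do not share coordinates with them. They lie at chr13:23979552-23979851 (SPATA13, plus strand), chr13:57631494-57631793 (PCDH17, plus strand), chr13:35476640-35476939 (MAB21L1, minus strand), chr13:37598719-37599018 (POSTN, minus strand) and chr13:37869723-37870022 (TRPC4, minus strand).
SPATA13: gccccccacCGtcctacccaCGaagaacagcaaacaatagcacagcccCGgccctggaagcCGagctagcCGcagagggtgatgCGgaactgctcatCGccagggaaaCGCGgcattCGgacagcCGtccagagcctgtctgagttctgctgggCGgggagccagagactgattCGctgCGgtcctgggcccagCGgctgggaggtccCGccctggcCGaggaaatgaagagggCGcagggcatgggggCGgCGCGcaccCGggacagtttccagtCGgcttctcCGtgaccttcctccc
PCDH17: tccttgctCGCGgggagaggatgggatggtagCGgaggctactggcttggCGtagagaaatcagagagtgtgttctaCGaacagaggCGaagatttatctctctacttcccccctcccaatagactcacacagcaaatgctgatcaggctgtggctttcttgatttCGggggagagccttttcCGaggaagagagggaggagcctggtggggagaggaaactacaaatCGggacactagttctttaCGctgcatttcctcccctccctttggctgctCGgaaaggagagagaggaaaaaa
MAB21L1: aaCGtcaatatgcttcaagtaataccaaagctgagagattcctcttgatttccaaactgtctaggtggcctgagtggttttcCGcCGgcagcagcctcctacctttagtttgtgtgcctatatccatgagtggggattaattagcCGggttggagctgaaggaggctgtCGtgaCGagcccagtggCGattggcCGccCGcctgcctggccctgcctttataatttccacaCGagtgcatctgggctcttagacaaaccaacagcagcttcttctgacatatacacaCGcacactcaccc
POSTN: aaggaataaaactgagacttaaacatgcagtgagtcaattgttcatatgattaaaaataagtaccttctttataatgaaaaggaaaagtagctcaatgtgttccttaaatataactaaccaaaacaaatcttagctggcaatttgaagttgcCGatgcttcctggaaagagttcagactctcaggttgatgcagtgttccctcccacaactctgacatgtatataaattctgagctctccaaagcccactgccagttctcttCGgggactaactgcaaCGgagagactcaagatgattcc
TRPC4: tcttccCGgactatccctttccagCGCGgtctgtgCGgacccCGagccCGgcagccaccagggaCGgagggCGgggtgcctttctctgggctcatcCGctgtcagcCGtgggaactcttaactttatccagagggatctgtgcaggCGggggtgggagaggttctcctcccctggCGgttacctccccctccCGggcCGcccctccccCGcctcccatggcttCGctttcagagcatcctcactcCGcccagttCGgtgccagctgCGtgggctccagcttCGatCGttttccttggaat

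RefSeq promoters were matched for 137 of 157 members and for 16 of the 17 departing members. The median number of CG dinucleotides was 27 over the members, against 14 over all 27305 promoters of the table. The 9 matched upward departing members had a median of 27, from 6 to 37, and the 7 downward departing members a median of 15, from 3 to 21. POSTN had 3, MAB21L1 and PCDH17 11 each, TRPC4 21 and SPATA13 24. The motif TATAAA, searched on both strands as TATAAA or TTTATA, was in 12% of all promoters and 6.57% of the members' promoters. It was in 3 of the 7 downward departing promoters (GPC6, MAB21L1 and POSTN) and in 0 of the 9 upward ones. These are descriptions of the letters in a fixed window, in lists chosen with their values known. All promoters were taken without a limit on level or gene type, so their values are not matched to those of the members.

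Of the downward departing members, MAB21L1, TRPC4, FREM2 and GPC6 were close to absent in cis cells. MAB21L1 (ENSG00000180660, GRCh37 chr13:36047556-36052901), a gene of eye and nervous system development, was at 235, 239 and 231 CPM in untreated wt and had 0, 3 and 1 reads in cis, a ratio of 3020 (95% exact Poisson interval 1180 to 11100, which covers counting error only). The ratio was 1590 (545 to 7720) with carboplatin, 2850 (1220 to 8790) under -SG and 1030 (443 to 3180) under -SG with carboplatin. Such intervals, here and below, describe genes that were chosen on the same values, and they are no test of a difference. No wt and cis library of MAB21L1 came near each other, and wt itself was lower with carboplatin, at 101 to 103 CPM. MAB21L1 lies within NBEA on the opposite strand and shares exonic bases with it, and the strand setting of the counting was not given in the sources used here, so reads in the shared bases cannot be assigned with certainty. TRPC4, a receptor-operated calcium channel, was at 114, 117 and 113 CPM in untreated wt and had 2, 0 and 4 reads in cis, a ratio of 980 (450 to 2670), and ratios of 1340, 1720 and 645 in the other conditions. FREM2, an extracellular matrix protein of the basement membrane, was at 142, 139 and 133 CPM in wt and 0.46, 0.16 and 0.23 CPM in cis, a ratio of 505 (301 to 924). Under -SG with carboplatin the ratio of FREM2 was 65.8 (46.6 to 96.2), with 47.4, 23.9 and 47.1 CPM in wt. GPC6, a glypican heparan sulphate proteoglycan, was at 76.1, 74.1 and 73.3 CPM in wt and 0.40, 0.70 and 0.34 CPM in cis, a ratio of 153 (104 to 237), and it too had its smallest ratio, 32.5, under -SG with carboplatin.

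POSTN, NBEA and PCDH9 were low but measurable in cis cells. POSTN, which encodes the secreted matrix protein periostin, was at 875, 887 and 860 CPM in untreated wt and at 7.65, 6.49 and 6.60 CPM in cis, a log2 fold change of -7.02 ± 0.040 (SE). It was higher in the cis libraries without serine and glycine, at 14.2 to 17.1 CPM, and this response to -SG was 1.22 on the log2 scale (adjusted p = 7.98e-16). In wt POSTN fell by 0.26, given without a test because POSTN entered the members only through its untreated wt level. NBEA, a large anchoring protein of membrane traffic, was at 73.2, 76.0 and 73.5 CPM in wt and 2.84, 2.60 and 2.20 CPM in cis. It too was higher in cis cells under -SG, by 1.17 (adjusted p = 1.7e-09). PCDH9, a protocadherin of cell adhesion, was at 15.6, 16.8 and 15.2 CPM in wt and 1.06, 1.41 and 1.92 CPM in cis, a log2 fold change of -3.45 ± 0.14 (SE). The wt and cis libraries of these genes did not overlap in any condition.

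The upward departing members were higher in cis than in wt cells on a chromosome where most members were lower. SPATA13 (GRCh37 chr13:24553944-24881212), a guanine nucleotide exchange factor for Rac and Cdc42, had 5, 2 and 7 reads in the untreated wt libraries and 15.8, 14.9 and 16.6 CPM in cis, a ratio of 62.1 (37 to 114), and ratios of 23.9, 77.2 and 23.5 in the other conditions. A further annotated gene overlaps SPATA13 on the same strand, so its count is uncertain. PCDH17, another protocadherin, was at 3.71, 3.88 and 3.83 CPM in wt and 75.8, 69.4 and 70.7 CPM in cis, a log2 fold change of 4.20 ± 0.073 (SE). GJA3, the connexin 46 of gap junctions, was at 9.35, 7.88 and 7.29 CPM in wt and 28.7, 32 and 32.4 CPM in cis. SPART, the protein spartin that acts in lipid droplet turnover, was at 10.9, 12 and 10.4 CPM in wt and 30.7, 32.4 and 32.5 CPM in cis. TDRD3, a reader of methylarginine in histones, was at 58.9, 59.2 and 60.3 CPM in wt and 154, 151 and 159 CPM in cis without treatment, and in cis under -SG at 87.8 to 90.0 CPM. The wt and cis libraries of these genes did not overlap.

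MIPEP, MTMR6, ATP11A and NUP58 departed upwards by a smaller amount. MIPEP, a peptidase that processes imported mitochondrial proteins, was at 27.4, 28.9 and 27.3 CPM in untreated wt libraries and 53.5, 48.9 and 54.6 CPM in those of cis, without overlap, and had log2 fold changes of 0.87, 1.30, 1.01 and 0.98 in the 4 conditions, and ATP11A, a phospholipid flippase, had 0.65, 0.89, 0.68 and 1.01. MTMR6, a phosphoinositide phosphatase, had 0.72, 0.75, 0.83 and 1.10. NUP58, a protein of the nuclear pore, was only slightly above wt, at 0.16, 0.29, 0.69 and 0.43, and departed because the members' median lay below it by 1.04 to 1.56. CENPJ, a centriole protein, was above wt in all 4 conditions, but by only 0.05 in untreated complete medium. Its departure of 0.98 there fell short of 1. These genes and CENPJ were among the members called higher in all 3 treated pairs. MIPEP, MTMR6, ATP11A and NUP58 were named by a rule that used those same pairs, so their calls are not independent support.

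**Figure D3:**
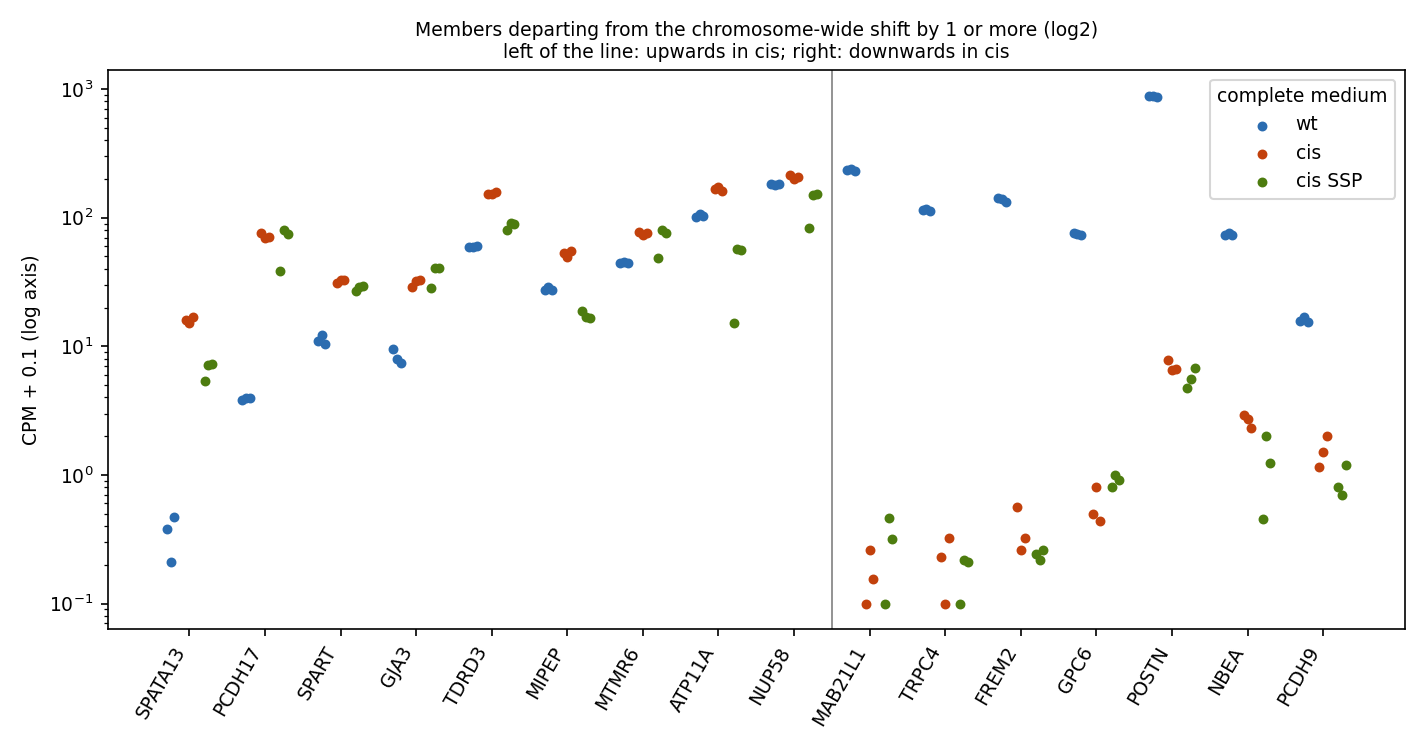
CPM plus 0.1, on a log axis, in each untreated library in complete medium of 16 members that departed by 1 or more in all 4 conditions, coloured by line, with 9 upward members left of the line and 7 downward members right of it. The downward members are high in wt and low in both other lines, while MIPEP and ATP11A are above wt in cis and below it in cis SSP.

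Departing members lay side by side in places. Among neighbouring members that departed by 0.5 or more in the same direction in all 4 conditions, MIPEP and SPATA13 stood side by side in an upward run, and CENPJ, MTMR6 and NUP58 formed another at 25456417 to 25939528 (GRCh37). PARP4 lies between these runs and did not depart by 0.5 in all 4 conditions, with departures of -0.13, -0.44, 0.22 and -0.02. NBEA with MAB21L1, at 35516407 to 36052901, and POSTN with TRPC4, at 38136720 to 38443939, were the downward runs. MAB21L1 lies within NBEA and shares exonic bases with it, so the counts of this pair may not be separate signals. Runs were searched for after the values had been seen and were not tested.

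Cis SSP cells kept a members' median below wt in each condition, but not every stretch of the chromosome lay below wt. The running median of 15 members for cis SSP/wt ran from -1.18 to -0.08 with carboplatin and from -1.46 to -0.52 under -SG. Under -SG with carboplatin it ran from -1.06 to 0.003, with the highest value at RFC3 and NBEA. Against wt the members in cis SSP had medians of -1.03 in complete medium, -0.84 with carboplatin, -0.98 under -SG and -0.81 under -SG with carboplatin, and against cis cells medians of -0.13, -0.089, -0.055 and -0.073, or 91.3% to 96.2% of the cis level. Of the members tested against cis (154, 154, 154 and 153), 21 were lower and 1 higher in complete medium, against 13.3% and 15.8% of all genes. With carboplatin 64 were lower and 32 higher, against 34.5% and 34.7%. Under -SG 34 were lower and 15 higher, against 23.2% and 21.6%, and under -SG with carboplatin 64 were lower and 45 higher, against 36.5% and 37.3%. Chromosome 13 ranked 5, 4, 4 and 3 from the lowest of 23 chromosomes in these comparisons, with chromosome 8 lowest. Without the libraries that stood apart, complete medium gave 59 lower and 25 higher (32.5% and 32.9% of all genes) and -SG gave 71 lower and 53 higher (38.5% and 37% of all genes), so these counts depended strongly on 1 library in each condition. Scaling by total counts alone turned 64 lower and 45 higher under -SG with carboplatin into 83 lower and 31 higher, with the median of all genes shifted by -0.14.

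The departing members did not all keep their place in cis SSP. All 7 downward members stayed at least 1 below the members' median in cis SSP against wt. Of the 10 upward members, GJA3, SPATA13, MTMR6, SPART, PCDH17 and TDRD3 were above wt and 1 or more above the median in cis SSP in all 4 conditions. MIPEP and ATP11A were instead below wt and within 0.5 of the median there, at a level like that of most members. MIPEP was at 18.6, 16.8 and 16.6 CPM in untreated cis SSP against 53.5, 48.9 and 54.6 CPM in cis, and fell by 1.57 on the log2 scale (adjusted p = 0.000182). ATP11A was at 15.1, 57.1 and 56.2 CPM against 166, 172 and 162 CPM, with -1.93 (adjusted p = 0.0271) in complete medium and -1.60 (adjusted p = 5.84e-12) with carboplatin. The lowest value of ATP11A belonged to the cis SSP library that stood apart, and the other cis SSP libraries did not overlap with wt or cis either.

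Among the members named for cis SSP against cis, WASF3 had the most negative values. Gene values here for complete medium and -SG include the cis SSP libraries that stood apart. WASF3, an activator of actin branching in cell migration, was at 154, 162 and 156 CPM in untreated wt, 47.8, 48.8 and 47.3 CPM in cis and 2.97, 5.80 and 6.52 CPM in cis SSP. Its 3 lines did not overlap, and the cis SSP/cis log2 fold change was -3.19, -2.68, -2.35 and -2.09 (adjusted p = 0.000629, 3.63e-22, 0.000242 and 4.56e-12). NBEA fell further in cis SSP with carboplatin, by 0.74 on the log2 scale (adjusted p = 0.00538), and under -SG, by 1.79 (adjusted p = 0.0118). Higher in cis SSP in the 3 treated pairs were DIAPH3, ITM2B, EBPL, HMGB1 and HSPH1. ITM2B, a transmembrane protein cleaved by furin, was at 44.5, 43.4 and 48.0 CPM in untreated cis and 81.8, 64.7 and 66.3 CPM in cis SSP, and was also the member called higher in complete medium, at 0.67 (adjusted p = 0.00773). DIAPH3, a formin that nucleates actin filaments, was at 38.0, 38.6 and 37.5 CPM in cis under -SG and 95.1, 65.5 and 91.5 CPM in cis SSP, a difference of 1.14 (adjusted p = 0.00232). In complete medium the DIAPH3 difference was -0.13 (adjusted p = 0.593). HMGB1, a DNA-bending chromatin protein, gave 0.14, 0.86 and 0.90 in the treated pairs, EBPL, related to the sterol isomerase EBP, gave 0.15, 1.12 and 0.64, and HSPH1 gave 0.40, 0.32 and 0.82.

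Carboplatin changed more members in wt cells than in cis or cis SSP cells; the difference in response was tested between wt and cis, with values given after the lists, and not for cis SSP. The untreated wt and cis libraries served both to select the members by level and as the reference of the carboplatin and -SG responses of wt and cis, the interaction in complete medium and the untreated cis SSP and cis comparison, so those counts are not independent of the selection, and the shares of all genes are not matched on level. In wt, 92 of 156 members tested were lower with carboplatin and 44 higher, against 39% and 38.9% of all genes, and the members' median was -0.21 while that of the other chromosomes was -0.05. In cis 13 of 153 were lower and 7 higher, against 10.8% and 9.27%, and these 20 calls were 12 to 15 when 1 library was left out (12 without cis carbo replicate 1 or 3, 13 without cis replicate 1), 7 by DESeq2, 2 in 1 fit over the 36 libraries and 0 at a log2 fold change of at least 0.5. In cis SSP 1 of 154 was lower (RFXAP, a factor of MHC class II transcription, -0.78) and 1 higher (HSPH1, 0.50), against 2.72% of all genes called in either direction. Without the cis SSP library that stood apart, 29 were lower and 26 higher, against 19.2% and 21.9% of all genes. At an unadjusted p under 0.05 the full set gave 13 members, and DESeq2 called 3. The 10th to 90th percentile of the members' change ran from -1.06 to 0.41 in wt, from -0.17 to 0.10 in cis and from -0.31 to 0.37 in cis SSP in complete medium.

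**Figure D4:**
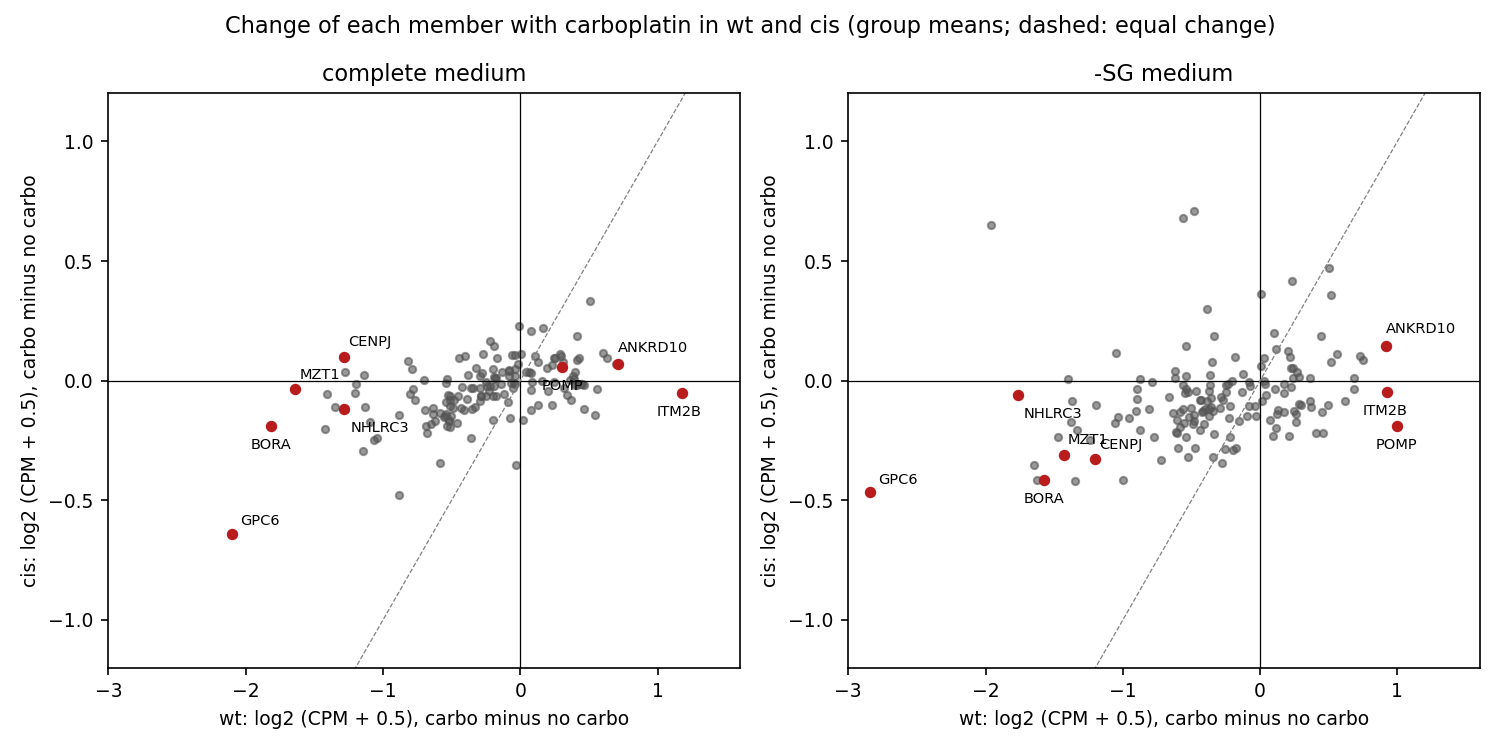
Change of each member with carboplatin in cis (vertical axis) against its change in wt (horizontal axis), as the log2 ratio of mean CPM plus 0.5 with and without the drug, in complete medium (left) and -SG medium (right), each point being 1 member and the dashed line equal change. In complete medium the wt median was -0.22 and the cis median -0.03, and BORA, MZT1 and CENPJ lie far to the left of the dashed line.

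The members that fell most with carboplatin in wt cells in complete medium were GPC6, BORA and MZT1. BORA, an activator of the mitotic kinase Aurora A, was at 26.8, 25.7 and 25.2 CPM in wt without drug and 7.47, 6.52 and 7.05 CPM with it, and fell by 1.86 on the log2 scale (adjusted p = 1.98e-91). MZT1, a part of the gamma-tubulin ring complex, fell by 1.65 (adjusted p = 1.67e-145), from 60.8 to 61.3 CPM to 18.5 to 20.5 CPM. GPC6 fell by 2.12, given without a test because it entered the members only through its untreated wt level, the reference of this response. In cis cells BORA was at 13.8, 14.9 and 14.7 CPM without and 14.1, 12.1 and 11.7 CPM with carboplatin (-0.17, adjusted p = 0.19), and MZT1 at 31.6 to 33.8 CPM without and 31.2 to 32.2 CPM with it. With the drug BORA was higher in cis than in wt by 0.82 (adjusted p = 1.49e-10) and MZT1 by 0.69 (adjusted p = 1.17e-14), while both lay below wt without it. The largest rises in wt were those of ITM2B (1.2, adjusted p = 2.55e-221), ANKRD10 (0.74, adjusted p = 8.71e-75) and LIG4 (0.73, adjusted p = 2.96e-26). LIG4 was at 24.3 to 26.7 CPM with the drug in wt and at 9.5 to 10.8 CPM in cis, without overlap. Of the few members called in cis, SMAD9, a receptor-regulated SMAD of BMP signalling, was at 22.6, 22.5 and 22.3 CPM without and 15.3, 16.4 and 16.3 CPM with carboplatin, and fell by 0.47 (adjusted p = 1.11e-05). IFT88, a protein of intraflagellar transport, fell by 0.32 (adjusted p = 0.00191) and KBTBD6, a substrate adaptor of a ubiquitin ligase, by 0.23 (adjusted p = 0.0316), while GAS6 rose by 0.38 (adjusted p = 0.0121), ABHD13 by 0.26 (adjusted p = 0.0435) and ATP11A by 0.25 (adjusted p = 0.00562).

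By list, carboplatin in wt lowered 12 of 14 members for mitochondria and metabolism and raised 1, lowered 12 of 17 for the cell cycle and raised 4, and lowered 6 of 8 for DNA repair and replication and raised 2. Protein synthesis, folding and breakdown had 10 lower and 11 higher. These counts stand against the 39% and 38.9% of all genes above. The difference between the responses of cis and wt was tested with an interaction term, positive where the change with carboplatin was higher in cis. In complete medium it was higher for 84 members and lower for 31, against 30.3% and 27.2% of all genes, with a median of 0.21. Under -SG it was higher for 72 and lower for 29, against 27.6% and 27.8%, with a median of 0.26. It was higher for 11 of the 14 members for mitochondria and metabolism in complete medium, with the others not called, higher for 10 and lower for 3 of the 17 for the cell cycle, and higher for 6 and lower for 2 of the 8 for DNA repair and replication. Under -SG the counts were 7 higher and 2 lower, 8 and 4, and 2 and 1 for the same lists, with medians of 0.30, 0.06 and -0.01. BORA (1.70 ± 0.12, SE), MZT1 (1.64 ± 0.076) and CENPJ (1.41 ± 0.071) had the largest positive interaction in complete medium. SPATA13 (-1.34 ± 0.44), ITM2B (-1.22 ± 0.055) and ANKRD10 (-0.64 ± 0.072) had the most negative. The value of SPATA13 rests on 2 to 13 reads per wt library in complete medium. SPATA13 also entered the members only through its untreated cis level, so its value is a description.

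Serine and glycine deprivation moved the members of wt and cis cells in both directions. In wt 37 members were lower and 40 higher under -SG, against 25.1% and 24.1% of all genes. In cis 59 were lower and 54 higher, against 37.4% and 37.6%. The members' medians were -0.01 in wt and 0.01 in cis, and those of the other chromosomes -0.01 and -0.09, and the shares of members called were near those of all genes. In cis SSP 0 of 154 were called, against 0.0218% of all genes by edgeR, with 5 at an unadjusted p under 0.05 and 0 by DESeq2. Without the library that stood apart, 14 were lower and 32 higher there, against 17% and 18.9% of all genes. CAB39L, a scaffold of the LKB1 kinase complex, was at 16.3, 14.3 and 15.5 CPM in wt with serine and glycine and 23.6, 22.5 and 21.9 CPM without, a rise of 0.57 (adjusted p = 8.92e-07), and in cis it rose by 0.58 (adjusted p = 3.16e-07). UFM1, a ubiquitin-like modifier linked to the endoplasmic reticulum, was at 35.5, 35.6 and 33.2 CPM in cis with and 71.5, 70.8 and 67.6 CPM without the amino acids, a rise of 1.04 (adjusted p = 3.28e-24), and 0.10 in wt (adjusted p = 0.0177). BORA fell by 1.22 in cis (adjusted p = 7.05e-16) and by 0.41 in wt (adjusted p = 9.65e-06). KATNAL1, a katanin-like microtubule protein, fell by 1.02 in cis (adjusted p = 1.18e-14). PCDH17 fell by 1.05 in cis, given without a test because PCDH17 entered the members only through its untreated cis level. In wt HSPH1 fell by 0.61 (adjusted p = 6.21e-14), CARS2 by 0.57 (adjusted p = 2.1e-09) and POMP by 0.52 (adjusted p = 1.41e-10), while SMAD9 rose by 0.44 (adjusted p = 2.86e-06) and LNX2, a ubiquitin ligase that binds NUMB, by 0.42 (adjusted p = 5.08e-06). The difference between the lines' responses to -SG was not tested.

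At the limit of 8 CPM, SPATA13 (8.02 CPM), RFXAP (8.09 CPM) and ERCC5 (8.56 CPM) were the members just inside. Just outside were LMO7 (7.93 CPM), MBNL2 (7.37 CPM) and FOXO1 (6.62 CPM), with untreated cis/wt log2 fold changes of 0.81, -0.81 and 5.72. FOXO1, a forkhead factor of stress and insulin signalling, averaged 0.24 CPM in untreated wt libraries and 13 CPM in those of cis. Among the departing members, SPATA13 and PCDH17 were below the limit in untreated wt and entered only through their level in cis. The downward departing members were below it in untreated cis and entered only through their level in wt. The size of these departures is therefore not independent of the selection. FOXO1 missed the limit by its mean. All 157 members passed the filter on low counts in the cis/wt fits, whereas 3 or 4 did not in the fits of cis SSP against cis. MAB21L1, TRPC4 and FREM2 were not tested there.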

How the data were processed

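RNA was measured by sequencing in 36 libraries of A2780 lines, 3 in each of 12 conditions. The authors aligned single-end reads with STAR to GRCh37.p13 and counted exonic reads per gene with HTSeq, and they deposited raw counts, 1 table for all libraries. The strand setting of the counting was not given in the sources used here. Gene rows (57820) were annotated with GENCODE on GRCh37, where 55538 identifiers matched, and 3 rows that name no gene were left out of library sizes and tests (4.21% to 17.9% of a library's counts).

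Members were protein-coding chromosome 13 genes with a mean of 8 or more CPM over the 6 untreated wt and cis libraries; BRCA2, TNFRSF19, SUCLA2, CKAP2, collagen and ABC transporter genes were left out. The members, role lists and comparisons were chosen with earlier results of these data known. Counts were analysed in R 4.3.3 with edgeR 4.0.16 (TMM scaling, filterByExpr, robust glmQLFit, glmQLFTest) on the libraries of the conditions compared, with Benjamini-Hochberg adjustment over all genes tested and calls at an adjusted p under 0.05. The interaction was the line by carboplatin term of a fit over 4 conditions, and departures were tested with the members' median as an offset. An SE is the absolute log2 fold change divided by the square root of F. Library scores used log2 CPM with a prior count of 2. Ratios of members with few reads used summed reads with an exact 95% Poisson interval, an addition made after seeing the data, as were the runs of neighbours and the promoter counts. RefSeq promoters (GRCh38.p14) and figures were handled in Python 3.11.15 with pandas 2.3.3 and matplotlib 3.10.9. The tests were tried on simulated data.

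Genes were named where they departed from the members' median by 1 or more in all 4 cis/wt pairs, where they were the most changed called members of a comparison (at most 5 each way for cis SSP/cis, at most 3 each way for responses and interactions), where they were the 3 most abundant of a role list, where they lay next to the 8 CPM limit, or where they were on a fixed list of 28 genes if members. MPHOSPH8 and the members of the 60 to 70 Mb window were named after their values were seen.

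Alternatives were DESeq2 1.42.0, DESeq2 size factors, total counts, TMM from genes off chromosome 13, no filter, 1 fit over 36 libraries, a log2 fold change of at least 0.5, single libraries left out, the doubtful libraries left out, other member limits, members without overlapping genes, and means or summed CPM in place of medians. Results of 1 departing member are not reported here.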

Additional observations from a re-analysis of the deposited data

Results flagged for a closer look

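The change with carboplatin was not the same in wt as in cis for 115 members in complete medium and for 101 under -SG, by the interaction term of the edgeR quasi-likelihood test at an adjusted p under 0.05. Positive values mean that the change with carboplatin was higher in cis than in wt. In complete medium 84 members were called positive and 31 negative, against 30.3% and 27.2% of all genes tested. Under -SG 72 were called positive and 29 negative, against 27.6% and 27.8% of all genes tested.

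In complete medium the interaction was 1.70 for BORA (adjusted p = 3.87e-19), 1.64 for MZT1 (adjusted p = 2.54e-27) and 1.41 for CENPJ (adjusted p = 1.4e-25), and the wt libraries of all 3 genes with the drug lay below those without it. The interaction was -1.22 for ITM2B (adjusted p = 6.41e-28) and -0.64 for ANKRD10 (adjusted p = 1.85e-11). For SPATA13 it was -1.34, given without a test because SPATA13 entered the members only through its untreated cis level, which this term uses. ITM2B was at 97.4, 103 and 98.6 CPM in wt without and 223, 227 and 227 CPM with carboplatin, and in cis at 43.4 to 48.0 and 41.8 to 45.3 CPM.

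Under -SG the interaction was 1.84 for NHLRC3 (adjusted p = 7.9e-09), -1.16 for POMP (adjusted p = 6.66e-09) and -0.94 for ITM2B (adjusted p = 2.81e-08). It was 2.04 for GPC6, 1.44 for PCDH17 and -1.64 for SPATA13. These values are given without a test, because GPC6 entered the members only through wt, and PCDH17 and SPATA13 only through cis. The values of SPATA13 rest on 1 to 13 reads per wt library and that of GPC6 on 5 to 20 reads per cis library, so that both are imprecise. POMP was at 81.1, 80.5 and 81.9 CPM in wt -SG and 152, 181 and 154 CPM with carboplatin, against 39.1 to 39.7 and 31.9 to 37.3 CPM in cis.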

How the results depend on the processing

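No paired analysis was possible because the labels number no replicates within the conditions. The chromosome-wide cis/wt medians stayed negative under every alternative tried, between -1.03 and -0.85 in untreated complete medium and between -0.79 and -0.57 under -SG with carboplatin. The median of cis SSP/cis under -SG reversed to 0.027 in 1 fit over 36 libraries.

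Members called changed as follows, the order being that of the report. Restricted to members without overlapping genes (83 of 157), cis/wt gave 77, 81 and 71, cis SSP/cis 10, 51, 27 and 60, the carboplatin responses 69 in wt and 13 in cis, the -SG responses 44 and 61, departures 68, 61 and 59, and the interactions 60 and 51, as fewer members were counted. With a log2 fold change of at least 0.5, cis SSP/cis gave 25 with carboplatin and 45 under -SG with carboplatin, the carboplatin responses 52, 0 and 1 in wt, cis and cis SSP, the -SG responses 4 and 36, and the interactions 38 and 52. In 1 fit over 36 libraries, cis SSP/cis gave 76 in complete medium and 91 under -SG, the -SG response 27 in wt and 12 in cis SSP, the carboplatin response 2 in cis and 20 in cis SSP, and the interaction 58 in complete medium. Without replicate 1 of cis SSP and replicate 2 of cis SSP -SG, the counts were 84 and 124 for cis SSP/cis and 55 and 46 for the responses of cis SSP. DESeq2 gave 7 for carboplatin in cis, no filter gave 0 and a limit of 20 CPM gave 1 for carboplatin in cis SSP, and all tested chromosome 13 genes gave 38 and 76 for cis SSP/cis in complete medium and under -SG; the cause of these was not tested.

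Leaving out 1 library at a time gave 145 to 149, 151 to 154 and 132 to 144 members for cis/wt, 7 to 84, 88 to 97, 23 to 124 and 99 to 109 for cis SSP/cis, 130 to 134 and 12 to 15 for carboplatin in wt and cis, 68 to 83 and 104 to 112 for -SG in wt and cis, 0 to 55 and 0 for carboplatin and -SG in cis SSP, 123 to 129, 110 to 119 and 102 to 122 for departures, and 105 to 113 and 96 to 113 for the interactions. The lowest count of cis SSP/cis in complete medium came without cis replicate 1 and the highest without cis SSP replicate 1, and under -SG without cis -SG replicate 1 and without cis SSP -SG replicate 2.

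Scaling by total counts moved the called split of carboplatin in cis to 15 lower and 3 higher and in cis SSP to 2 lower. Of 685 alternative values of named genes, 666 kept their direction and call, 19 lost the call (EBPL, HSPH1, NBEA, DIAPH3, HMGB1, ATP11A and NUP58) and 0 reversed. Depth limited MAB21L1, TRPC4, FREM2, GPC6 and SPATA13, which had few reads in cis or wt.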

Other observations

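Noncoding genes of chromosome 13, which were not members, were also mostly lower in cis than in wt cells. The 8 with a mean of 1 CPM or more in the untreated wt and cis libraries had median log2 fold changes of -1.65 in complete medium, -1.77 with carboplatin, -1.34 under -SG and -1.16 under -SG with carboplatin, with 7, 7, 7 and 8 of them below 0. For the 3 that overlap no annotated gene (UBAC2-AS1, ANKRD10-IT1 and DNAJC3-DT) the medians were -2.25, -2.10, -2.22 and -1.66. MIR17HG, the host transcript of the miR-17-92 cluster, averaged 11.4 CPM in wt, 0.97 CPM in cis and 3.23 CPM in cis SSP without treatment. It was 15.3 CPM in wt with carboplatin and 1.33 CPM in cis. DLEU1 averaged 20.6 CPM in wt, 12 CPM in cis and 19.9 CPM in cis SSP, and the cis SSP/cis difference was 0.75 (edgeR adjusted p = 0.0266). These cis SSP values include the library that stood apart. DLEU2 was the exception in 3 of the 4 conditions, with a log2 fold change of 0.14 in complete medium, 0.46 with carboplatin, 0.55 under -SG and -0.58 under -SG with carboplatin. The noncoding genes were looked at after the members' values were known. No median over noncoding genes of other chromosomes was computed, so these values carry no comparison with noncoding genes elsewhere.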
